A study of Mus musculus with 39 samples.

Results

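Ischemia-reperfusion (IR) was compared with sham surgery in remote myocardium, the part of the left ventricle that lies outside the infarct. The libraries were chosen by their labels, and 8 of the 39 libraries of the series entered, 4 IR and 4 sham. Of 38293 genes in the count table, 13611 passed a filter on low counts and were tested. All hearts came from wild type (wt) male C57BL6/J mice that were operated on at 12 weeks of age. In the 4 IR mice the left anterior descending coronary artery was tied off temporarily, and tissue was taken 3 days later, at a labelled age of 12 weeks. The sham group pooled 2 mice taken 3 days after sham surgery (age 12 weeks) and 2 taken 8 weeks after it (age 20 weeks), so only the 12-week shams match the IR mice in age and time. A further 4 mice with permanent ligation (myocardial infarction, MI), taken after 8 weeks at an age of 20 weeks, helped to estimate the spread between libraries and were compared with IR directly. The sources used here give neither infarct size nor how far from it the tissue was taken. Messenger RNA of whole tissue was sequenced, and the levels rest on the authors' read counts per gene. Gene positions are those of GENCODE vM21 on GRCm38.

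After an infarct, dying cardiomyocytes release signals that draw neutrophils and then monocytes from the blood, and the monocytes become macrophages that clear debris. Fibroblasts start to divide and lay down collagen, while surviving cardiomyocytes change their contractile, electrical and metabolic gene programs. The remote myocardium keeps its blood supply but is stretched by the altered load and shares blood-borne signals with the injured wall.

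Each library held 9.40 M to 15.7 M counts. Levels are given as counts per 1000000 of the library total (CPM), and fold changes as log2 IR minus sham from a model fitted with edgeR's quasi-likelihood test, each with its standard error. That model scales libraries by the trimmed mean of M-values (TMM), with factors of 1.06 to 1.12 in IR and 0.884 to 0.959 in sham libraries, so a fitted rise is smaller, and a fitted fall larger, than the ratio of the CPM. A gene was called when its Benjamini-Hochberg adjusted p over all genes tested was under 0.05. Each library is described here as a separate mouse, but the labels do not say that replicates came from separate surgeries. The p-values therefore cover the spread among these libraries, which may be technical. No replicate pair of the 12 compared held identical counts, and the lowest chi-square per gene between a pair was 8.82, where sampling noise alone gives about 1. A principal component with 58.3% of the variance separated the 4 IR libraries from the 4 shams. Cardiomyocyte genes were abundant in every library. Of 10 atrial markers, Bmp10 was at 0 in all 8, but 8 passed the filter, of which 2 were called higher and 1 lower in IR. Their list summed to 2036 to 2794 CPM in IR and 977 to 1399 in sham libraries. Most of that sum was Clu, with means of 1587 CPM in IR and 783 in sham, and the list also holds the stress gene Nppa. The median log2 fold change of the 8 tested was -0.46, so the higher sum does not stand for the atrial markers as a set. 12-week sham replicate 2 stood apart from the other shams: it held 8452 CPM of Myh7, the slow myosin heavy chain, against 276 to 877 in the others, and 13099.9 CPM of Myh6, the fast adult one, against 21530.3 to 24323. Values without it are given where they change the call of a named gene.

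Remote myocardium at day 3 differed from sham across much of the transcriptome. Of the 13611 genes tested, 4222 (31.0%) were called, 2301 (16.9%) higher and 1921 (14.1%) lower. These shares are the background against which each gene group below is read, and the median log2 fold change of all genes tested was -0.02. Rises were larger than falls: 1006 of the called rises (43.7%) exceeded 1 on the log2 scale, against 65 of the called falls (3.38%). Against the 12-week shams alone, within a model that gave each sham age its own mean and drew the spread from all 12 surgery libraries, 2181 genes (16.0%) were called, 1474 (10.8%) higher and 707 (5.19%) lower. Counts against the 12-week shams below come from this model. Without 12-week sham replicate 2, 2244 of 13821 genes tested (16.2%) were higher and 1902 (13.8%) lower. Scaling by library totals in place of TMM moved the median of all genes by 0.23, to 0.21, and called 4189 genes higher (30.8%) and 431 lower (3.17%).

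**Figure D1:**
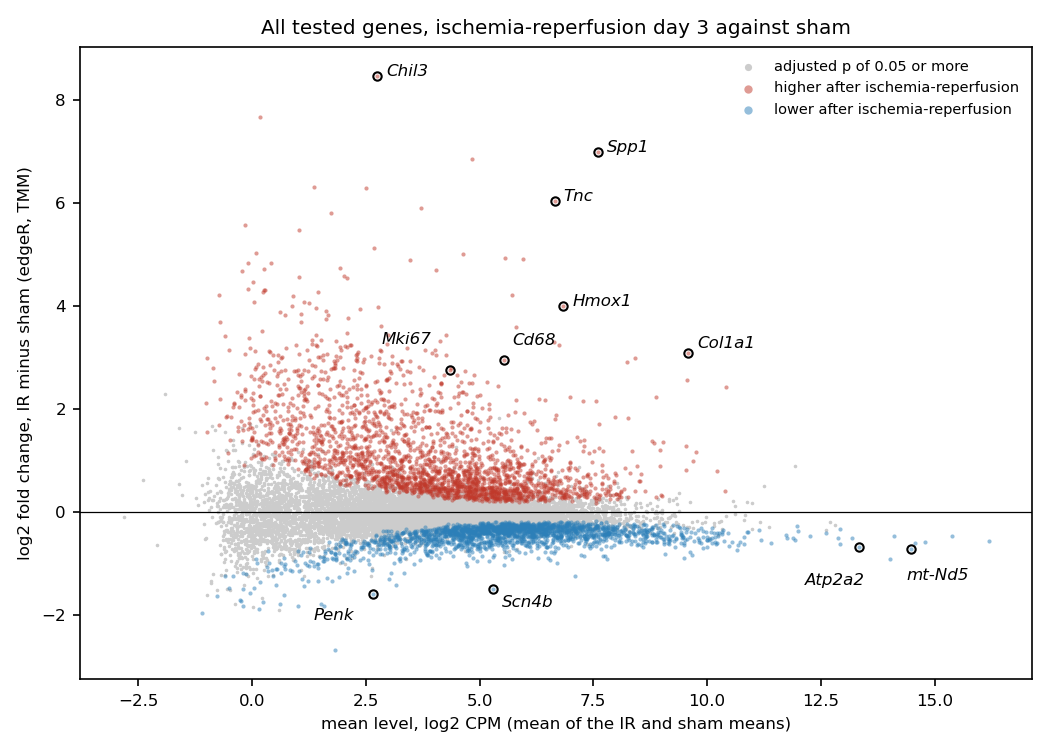
Each point is 1 of the 13611 genes tested, with the mean level in log2 CPM on the x axis and the fitted log2 fold change (IR minus sham) on the y axis. Called rises are red, called falls blue, and other genes grey. Rises reach beyond 8 on the log2 scale for Chil3, while the abundant cardiomyocyte genes on the right sit less than 1 below the zero line.

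The largest rises among abundant genes included Spp1, Tnc and Sprr1a. Spp1 (chromosome 5, 104435118 to 104441050), which encodes the secreted matrix protein osteopontin, stood at 267, 527, 222 and 527 CPM in the 4 IR libraries, 2.69 and 4.85 in the 12-week shams and 0.957 and 1.96 in the 20-week shams. Every IR library lay far above every sham, a rise of 6.98 ± 0.39 on the log2 scale (edgeR adjusted p = 7.23e-08). Tnc (chromosome 4, 63959785 to 64047015), encoding tenascin-C, a matrix glycoprotein of wound edges, held 51.6, 298, 214 and 228 CPM in IR and 1.60 to 3.14 in sham libraries. The groups did not overlap, although IR replicate 1 was well below the other IR libraries, and the rise was 6.04 ± 0.46 (edgeR adjusted p = 5.85e-07). Sprr1a, a small proline-rich protein made by stressed cardiomyocytes, was at 0.213 to 0.693 CPM in sham and 31.3 to 97.8 in IR libraries and rose by 6.84 ± 0.51.

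Hmox1 (chromosome 8, 75093621 to 75100589), the heme-degrading enzyme heme oxygenase 1, had the smallest p among the named genes. Its level was 172, 172, 231 and 292 CPM in IR, 11.4 and 16.1 in 12-week and 11.5 and 8.13 in 20-week shams. All IR libraries stood far above the shams, 15.8-fold above sham in the fit (log2 3.98 ± 0.20, edgeR adjusted p = 3.34e-08). Arg1, the arginase of alternatively activated macrophages, rose by 5.89 ± 0.56 and Gpnmb, a glycoprotein of lipid-laden macrophages, by 4.93 ± 0.46. Lgals3, encoding galectin-3, rose by 4.90 ± 0.39, and Adam8, a metalloprotease of leukocytes, by 5.00 ± 0.30. Chil3, a chitinase-like protein of activated macrophages, was at 10.5, 27.9, 5.92 and 9.30 CPM in IR, while the 4 shams held 1 count in total, a ratio of 562 (95% interval 101 to 22238) that covers counting error only. Rgs1, a regulator of chemokine signalling in leukocytes, had 2 sham counts and a ratio of 105 (95% interval 28.8 to 874).

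The largest falls among genes with a mean of at least 5 CPM in IR or sham and no overlap between the groups were smaller and of mixed function. Scn4b, the beta-4 subunit of the cardiac sodium channel, was at 20.2, 20.3, 28.8 and 22.5 CPM in IR, 52.6 and 39.7 in 12-week and 64.1 and 63.7 in 20-week shams. All IR libraries lay below all shams, a fall of 1.49 ± 0.22 on the log2 scale (edgeR adjusted p = 0.000134). Penk, encoding the opioid precursor proenkephalin, fell by 1.59 ± 0.31, and Cytl1, a small secreted protein, by 1.42 ± 0.25. Acsm5, a medium-chain acyl-CoA synthetase, fell by 1.19 ± 0.30, and Acot2, a mitochondrial acyl-CoA thioesterase with a near-identical relative, by 1.03 ± 0.21. Of the 15 largest falls, 10 were also called against the 12-week shams and 5 were not: Acsm5 (adjusted p = 0.156), Acot2 (0.051), Pfkfb1 (0.0704), Cnga3 (0.129) and Dcaf12l1 (0.0759). The exons of Pfkfb1 share bases with Apex2 on the opposite strand, which held 557 counts in the 8 libraries against 767 for Pfkfb1. Arhgap20, a GTPase activator, had the smallest p of the 15 (fall of 0.95 ± 0.12, edgeR adjusted p = 3.48e-05, and 0.000569 against the 12-week shams).

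**Figure D2:**
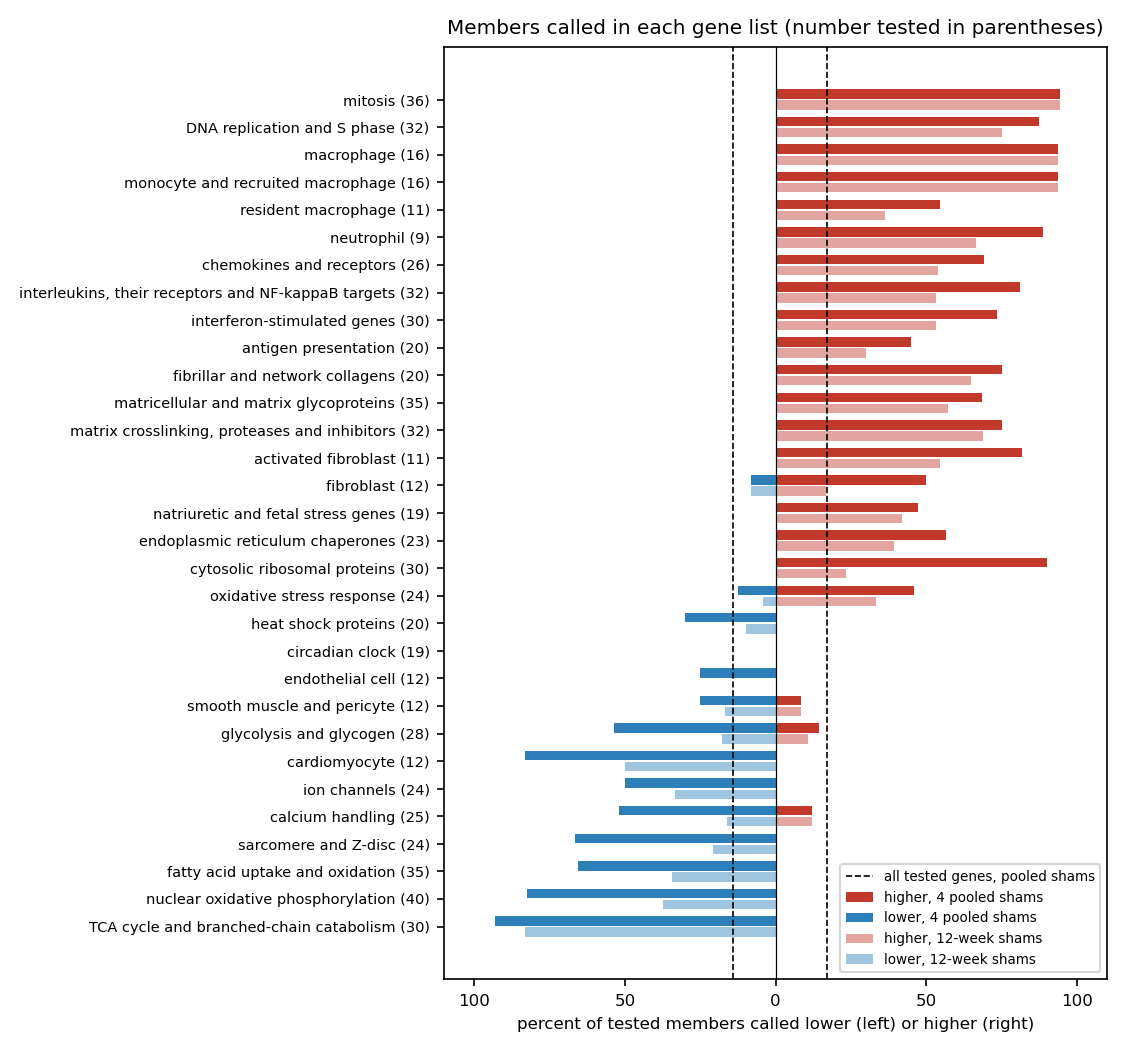
Bars give the percent of the tested members of each gene list that were called higher (right, red) or lower (left, blue), dark against the 4 pooled shams and pale against the 12-week shams. The dashed lines mark the shares among all genes tested, 16.9% higher and 14.1% lower. The mitosis, macrophage and monocyte lists reach over 90% higher, and the TCA cycle list reaches over 90% lower.

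Macrophage genes rose together. Of 16 macrophage markers tested, 15 rose and 0 fell, against the 12-week shams as well, with a median of 1.81. Their summed level was 1487, 2144, 1611 and 2429.5 CPM in the IR libraries, 576 and 468 in the 12-week and 325 and 363 in the 20-week shams, so IR replicates 2 and 4 were highest. In whole tissue, more cells of a type and more RNA per cell cannot be told apart, and likewise for falls. Cd68, a lysosomal protein of phagocytes, stood at 63.4, 109.7, 56.5 and 103 CPM in IR, 10.5 and 8.91 in 12-week and 8.08 and 9.18 in 20-week shams. The 4 shams lay within a narrow band that every IR library exceeded, a rise of 2.95 ± 0.19 (edgeR adjusted p = 3.22e-07). Ctss, a lysosomal protease that trims antigens, rose by 3.24 ± 0.22, Mpeg1, the pore-forming perforin-2, by 3.29 ± 0.24, and C1qb, a chain of complement C1q, by 1.87 ± 0.18. Lyz2, lysozyme of myeloid cells and the most abundant of these named genes, rose from a sham range of 115 to 189.6 CPM to an IR range of 609.9 to 1042 CPM.

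Nearly all markers of monocytes and recruited macrophages rose, as did some resident macrophage markers. The recruited list, monocyte genes and genes of monocyte-derived macrophages, had 15 of 16 members higher and none lower, with a median of 2.90. It also holds the matrix genes Fn1 and Spp1, so its sum is not of monocyte transcripts alone. The sum was 1103, 1956, 1155 and 2191 CPM in IR, of which Fn1, its most abundant gene, held 332, 695, 458 and 999. Ccr2, the receptor that brings monocytes out of bone marrow, was at 27.3, 39.4, 38.6 and 54.8 CPM in IR, 3.86 and 8.51 in 12-week and 6.49 and 3.09 in 20-week shams. The groups were well apart, with a rise of 2.67 ± 0.26 (edgeR adjusted p = 4.99e-06). Plac8, a monocyte marker, rose by 3.77 ± 0.46, and Ly6c2, a surface protein of inflammatory monocytes, by 2.82 ± 0.49 from 11 sham counts in all. Ly6c2 has a near-identical neighbour, as do genes of the Oas, Slfn, Chil and H2 families, so their counts are uncertain. Of 11 resident markers, 6 rose with a median of 0.75; against the 12-week shams 4 did. Mrc1, the mannose receptor, rose by 1.11 ± 0.15, and Maf, a transcription factor of tissue macrophages, by 0.84 ± 0.14. Folr2, a folate receptor, rose by 0.75 ± 0.17, a call not kept against the 12-week shams (adjusted p = 0.053). The defining resident genes Timd4, a receptor for dying cells, and Lyve1, a hyaluronan receptor, were looked at after their values were seen. Timd4 was at 1.36 to 2.76 CPM in IR and 0.448 to 2.18 in sham (log2 0.19 ± 0.43, edgeR adjusted p = 0.784), and Lyve1 at 17.9 ± 1.99 and 11.8 ± 3.75 CPM (mean ± SD, n = 4 each; log2 0.36 ± 0.21, edgeR adjusted p = 0.209). The difference between the resident and recruited lists was not tested.

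Neutrophil genes rose as well, at low levels. Of 14 listed, 9 passed the filter and 8 rose (6 against the 12-week shams). The summed list was 79.5, 69.8, 73.8 and 91.5 CPM in IR against 9.56 to 23.7 in sham libraries. Its most abundant gene was Lcn2, which the acute-phase list holds too, at 30.8, 26.7, 27.7 and 18.5 CPM in IR and 1.43 to 11.2 in sham. Csf3r, the receptor for granulocyte colony-stimulating factor, was at 16.7, 16.5, 17.0 and 27.8 CPM in IR and 1.96 to 3.27 in sham. IR replicate 4 was highest and no library overlapped, a rise of 2.71 ± 0.25 (edgeR adjusted p = 2.93e-06). S100a9, an alarmin stored in neutrophils, rose by 2.22 ± 0.44; its partner S100a8 rose by 2.85 ± 0.68, but against the 12-week shams its adjusted p was 0.0657. Il1r2, the decoy receptor for interleukin-1, was at 1.62 to 2.74 CPM in IR with 2 counts in all shams together, a ratio of 46.7 (95% interval 12.6 to 390.5). The defining neutrophil surface gene Ly6g was at 0 in 7 of the 8 libraries and was not tested. Among lymphocyte lists, only 2 of 14 T cell genes could be tested and both rose: Il7r, the interleukin-7 receptor, by 2.86 ± 0.59 and Cd4 by 1.15 ± 0.40, whose adjusted p of 0.0402 became 0.292 against the 12-week shams and 0.095 without 12-week sham replicate 2. The Cd4 call ended in 11 of 22 alternatives. Cd3e, part of the T cell receptor complex, was at 0 to 0.318 CPM in IR and 0 to 0.0753 in sham. Of 7 B cell genes tested none was called.

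**Figure D3:**
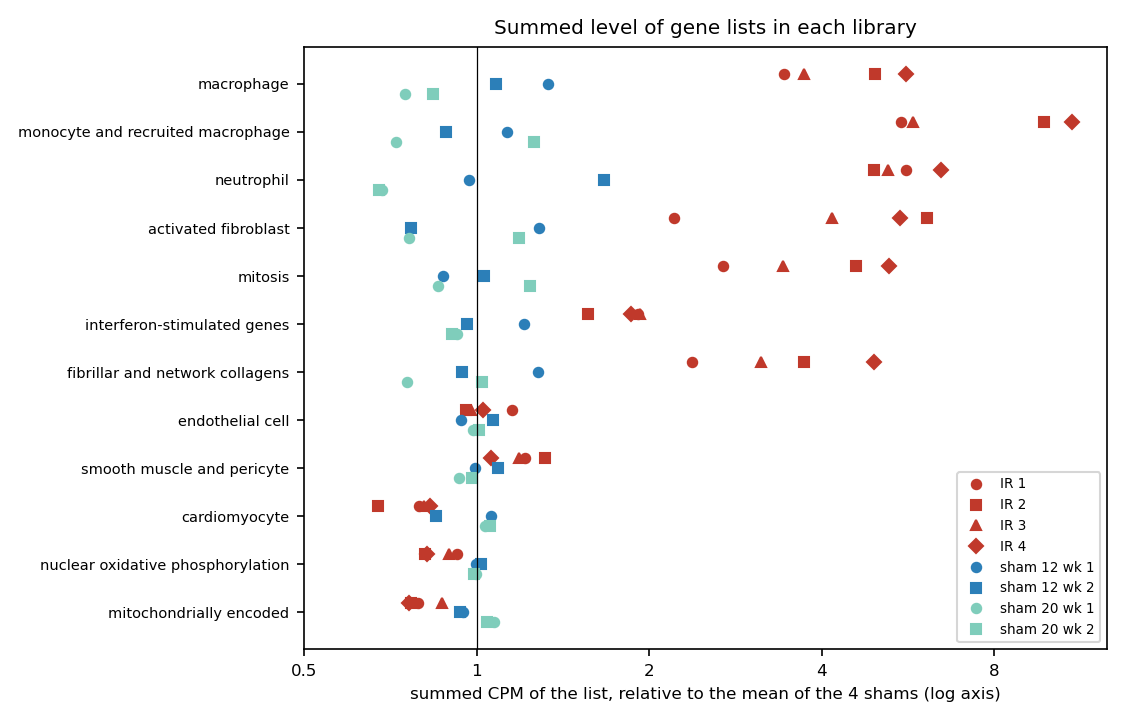
Summed CPM of 12 gene lists in each IR library (red) and each sham library (blue, 12 weeks; green, 20 weeks), divided by the mean of the 4 shams, on a log axis, with a marker shape for each replicate number. Macrophage, monocyte, neutrophil, mitosis and collagen sums of all 4 IR libraries lie above all shams. The monocyte list includes the matrix genes Fn1 and Spp1. The cardiomyocyte sums of IR lie below, with 12-week sham replicate 2 the lowest sham, and endothelial sums overlap.

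Many chemokines, the attractants of leukocytes, rose. Of 26 chemokines and receptors, 18 rose, none fell, and the median was 2.02, and 14 did against the 12-week shams. Ccl2, the main ligand of the monocyte receptor Ccr2, was at 28.4, 37.2, 28.7 and 21.7 CPM in IR, 2.87 and 8.71 in 12-week and 1.28 and 6.62 in 20-week shams. The shams were spread widely but all lay below IR, and the rise was 2.33 ± 0.36 (edgeR adjusted p = 0.000223). Ccl7, a second ligand of that receptor, rose by 1.96 ± 0.36, Ccl6 by 2.52 ± 0.22, Ccl9 by 2.51 ± 0.25 and Cxcl5, a neutrophil attractant, by 3.26 ± 0.56. 12-week sham replicate 2 was the highest sham for Ccl2, Ccl7 and Cxcl5, with 4.46 CPM of Cxcl5 against 0.106 to 0.527 in the other shams.

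Interleukin and NF-kappaB target genes rose in 26 of 32 cases, with a median of 1.38, and in 17 against the 12-week shams. Il1r1, the signalling receptor for interleukin-1, was at 47.2, 50.2, 52.3 and 58.5 CPM in IR and 17.7 to 22.4 in sham. Both groups were tight and separate, a rise of 1.21 ± 0.09 (edgeR adjusted p = 5.76e-07). Socs3, the feedback inhibitor of interleukin-6 signalling, rose by 2.24 ± 0.25, and Il1rn, the natural interleukin-1 antagonist, by 3.25 ± 0.56. Il6 was at 6.74, 2.94, 7.85 and 3.44 CPM in IR; 1.68 CPM in 12-week sham replicate 2 exceeded the other shams, at 0 to 0.106, and the rise was 3.33 ± 0.73 (adjusted p = 0.0601 in a fit without the 20-week shams). Il1b, interleukin-1 beta itself, rose by 1.92 ± 0.60, with an adjusted p of 0.0239 that was 0.139 against the 12-week shams; its call ended in 7 of 22 alternatives. Tnf, the classic inflammatory cytokine and looked at after its values were seen, was not called: it was at 1.04 to 3.33 CPM in IR and 0.359 to 2.55 in sham, with a log2 difference of 0.24 ± 0.48 whose sign turned in 3 alternatives.

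Interferon-stimulated genes, the antiviral and nucleic-acid-sensing program, rose in 22 of 30 cases with a median of 0.87, and in 16 against the 12-week shams. Their promoters are shown because the members moved together and an interferon-stimulated response element, searched here as GAAA blocks with 2 bases between them in either orientation, is the textbook feature of such genes. Promoter sequences came from the RefSeq table (build GRCm38.p6), which held 27 promoters of 22 listed genes. The element lay within the 250 bases before the start in 10 of the 27 (37.0%), against 3.0% of 32851 promoters in that table. The 3 members shown were picked by smallest p among called genes that had a match within 150 bases. That each of them holds the element was therefore set by the choice. The 150 bases before the start of 3 members follow, 5′ to 3′ on the gene's strand, with every match of the element in capitals: Isg15 at chr4:156200819-156200968 (minus strand), Bst2 at chr8:71537473-71537622 (minus strand) and Oas1a at chr5:120907526-120907675 (minus strand).
Isg15: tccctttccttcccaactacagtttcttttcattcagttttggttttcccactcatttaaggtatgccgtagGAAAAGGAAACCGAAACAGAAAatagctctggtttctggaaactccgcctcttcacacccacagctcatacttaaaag
Bst2: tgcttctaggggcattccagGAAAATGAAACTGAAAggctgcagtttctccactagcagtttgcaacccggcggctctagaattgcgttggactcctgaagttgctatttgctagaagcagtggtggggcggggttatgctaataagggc
Oas1a: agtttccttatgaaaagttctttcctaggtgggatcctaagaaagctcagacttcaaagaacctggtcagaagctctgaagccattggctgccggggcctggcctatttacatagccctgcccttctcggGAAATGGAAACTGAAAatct
A match is a description of these letters and not evidence of binding. In each of the 3 promoters the matches overlap within 1 stretch.

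Isg15, a ubiquitin-like protein, was at 18.0, 13.3, 18.8 and 12.3 CPM in IR, 4.39 and 4.06 in 12-week and 3.62 and 3.31 in 20-week shams. All IR libraries were above all shams, a rise of 1.80 ± 0.21 (edgeR adjusted p = 1.88e-05). Bst2, the virus-tethering protein tetherin, rose by 0.83 ± 0.17, and Oas1a, an enzyme that senses double-stranded RNA, by 1.48 ± 0.30. Zbp1, a sensor of Z-form nucleic acids, rose from a sham range of 0.851 to 2.33 CPM to an IR range of 11.1 to 15.3 CPM, or by 2.86 ± 0.33, and the antiviral GTPase Mx1 by 3.15 ± 0.38. Cxcl10, the interferon-induced chemokine, rose by 3.24 ± 0.45; its exons share bases with Art3 on the opposite strand, which held 20340 counts in the 8 libraries against 450 for Cxcl10. Antigen presentation genes were called higher in 9 of 20 cases, in 6 against the 12-week shams and in 17 under library-total scaling. H2-D1, a class I antigen-presenting chain, rose by 0.32 ± 0.10 with an adjusted p of 0.0236, and this p was 0.0644 without 12-week sham replicate 2; its call ended in 6 of 22 alternatives.

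Genes of dividing cells rose. Of 36 mitosis genes, 34 rose, none fell, and the median was 2.85, and the same count rose against the 12-week shams. Of 32 genes of DNA replication, 28 rose with a median of 1.16 (24 against the 12-week shams). Mitosis genes share a well known promoter feature, the CCAAT box, often beside a cell cycle homology region (CHR, here TTTGAA or TTCGAA), so 4 of their promoters are shown. A CCAAT box in either orientation lay within 250 bases before the start in 26 of 32 promoters of the mitosis list (81.2%; 31 of 36 genes matched) and in 33.8% of all 32851 promoters. A CHR lay in 10 of the 32 (31.2%) against 17.1% of all. For the replication list the CCAAT share was 56.7% of 30 promoters. The 150 bases before the start follow, 5′ to 3′ on the gene's strand from the same RefSeq table, with CCAAT and CHR matches of either orientation in capitals: Mki67 at chr7:135716380-135716529 (minus strand), Cenpe at chr3:135212413-135212562 (plus strand), Top2a at chr11:99024190-99024339 (minus strand) and Hmmr at chr11:40733438-40733587 (minus strand).
Mki67: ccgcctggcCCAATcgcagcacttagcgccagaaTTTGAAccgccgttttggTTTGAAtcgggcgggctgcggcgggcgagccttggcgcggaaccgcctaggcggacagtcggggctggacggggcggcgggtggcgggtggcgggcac
Cenpe: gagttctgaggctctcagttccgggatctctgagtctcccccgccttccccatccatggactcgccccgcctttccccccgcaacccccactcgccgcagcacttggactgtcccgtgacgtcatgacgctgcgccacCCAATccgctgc
Top2a: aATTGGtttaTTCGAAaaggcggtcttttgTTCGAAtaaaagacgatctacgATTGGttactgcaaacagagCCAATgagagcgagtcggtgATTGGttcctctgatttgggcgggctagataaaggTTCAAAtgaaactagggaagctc
Hmmr: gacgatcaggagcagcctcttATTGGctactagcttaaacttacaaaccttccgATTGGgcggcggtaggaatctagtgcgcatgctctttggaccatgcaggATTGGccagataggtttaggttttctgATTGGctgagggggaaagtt
Top2a and Hmmr each hold 4 CCAAT boxes in this window, while Mki67 and Cenpe hold 1.

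Mki67, the standard marker of cycling cells, was at 22.3, 45.9, 29.4 and 47.3 CPM in IR, 3.95 and 4.55 in 12-week and 2.87 and 6.55 in 20-week shams. The highest sham stayed below the lowest IR library, and the rise was 2.75 ± 0.25 (edgeR adjusted p = 3.1e-06). Top2a, the topoisomerase that untangles replicated chromosomes, was at 19.5, 33.9, 22.0 and 44.0 CPM in IR and 1.38 to 4.97 in sham, a rise of 3.14 ± 0.32 (edgeR adjusted p = 5.61e-06). Here too IR replicates 2 and 4 were highest, as for the macrophage sum. Cenpe, a kinesin of the kinetochore, rose by 3.48 ± 0.33, and Hmmr, a spindle protein, by 3.02 ± 0.32. In the replication group Mcm5, a subunit of the replicative helicase, rose by 1.96 ± 0.24, Mcm6 by 1.46 ± 0.17 and Uhrf1, which maintains DNA methylation, by 2.54 ± 0.32. Which cells cycled was not tested in this whole tissue. The cell cycle inhibitor Cdkn1a was at 31.1 to 64.0 CPM in IR and 12.2 to 31.6 in sham, overlapping, with a rise of 0.87 ± 0.28 and an adjusted p of 0.0287 that was 0.0665 against the 12-week shams and 0.0678 without 12-week sham replicate 2. Its call ended in 9 of 22 alternatives.

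Extracellular matrix genes rose broadly. Of 20 collagen genes, 15 rose and none fell (median 1.49), of 35 matrix glycoproteins 24 rose (median 1.19), and of 32 crosslinking enzymes, proteases and inhibitors 24 rose (median 1.47). Against the 12-week shams these counts were 13, 20 and 22. Col1a1 (chromosome 11, 94936224 to 94953042), the main chain of fibrillar collagen I, was at 812, 1369.8, 1110.3 and 2283 CPM in IR, 214 and 181 in 12-week and 80.8 and 87.1 in 20-week shams. The 20-week shams were lowest and IR replicate 4 highest, with a rise of 3.09 ± 0.33 (edgeR adjusted p = 9.54e-06) against all shams and 2.63 against the 12-week shams. Col1a2 rose by 2.57 ± 0.26, Col3a1, of fine fibrils, by 2.43 ± 0.28, and Col5a1, which seeds fibrils, by 2.16 ± 0.20.

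Among the glycoproteins, Fn1, the provisional wound matrix fibronectin, was at 332, 695, 458 and 999 CPM in IR and 44.2 to 92.7 in sham. No library overlapped and the rise was 2.98 ± 0.29 (edgeR adjusted p = 4.99e-06). Postn, periostin of activated fibroblasts, was at 205, 833, 442 and 704 CPM in IR and 39.8 to 90.5 in sham, a rise of 2.90 ± 0.41 with IR replicate 1 the lowest of its group, as for Tnc. Lox, the enzyme that crosslinks collagen, rose from a sham range of 4.36 to 14.0 CPM to an IR range of 71.5 to 127 CPM (3.59 ± 0.33), and Cthrc1, a secreted protein of migrating fibroblasts, by 4.69 ± 0.48. Mmp14, a membrane-bound collagenase, rose by 1.88 ± 0.21. Emilin1, an elastic fiber protein, rose by 1.59 ± 0.14.

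Of 11 activated fibroblast markers, 9 rose (6 against the 12-week shams), and of 12 general fibroblast markers 6 rose and 1 fell (2 and 1 against the 12-week shams). The summed activated list was 622, 1720.4, 1176 and 1544 CPM in IR and 214 to 361 in sham, with IR replicate 1 again lowest. Acta2, smooth muscle actin of myofibroblasts, was at 226, 222, 243 and 286 CPM in IR and 97.7 to 164 in sham, a rise of 0.73 ± 0.16 (edgeR adjusted p = 0.00294). Pdgfra, a receptor present on most cardiac fibroblasts, rose by only 0.31 ± 0.09, with an adjusted p of 0.0226 that was 0.107 against the 12-week shams; its call ended in 7 of 22 alternatives. Gsn, the actin-severing gelsolin, fell by 0.40 ± 0.11, but under library-total scaling its adjusted p was 0.244. Tgfb2, a ligand of the fibrosis pathway, rose by 1.04 ± 0.19, and its target Tgfbi by 1.77 ± 0.15; of 22 genes of that pathway 11 rose and none fell.

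**Figure D4:**
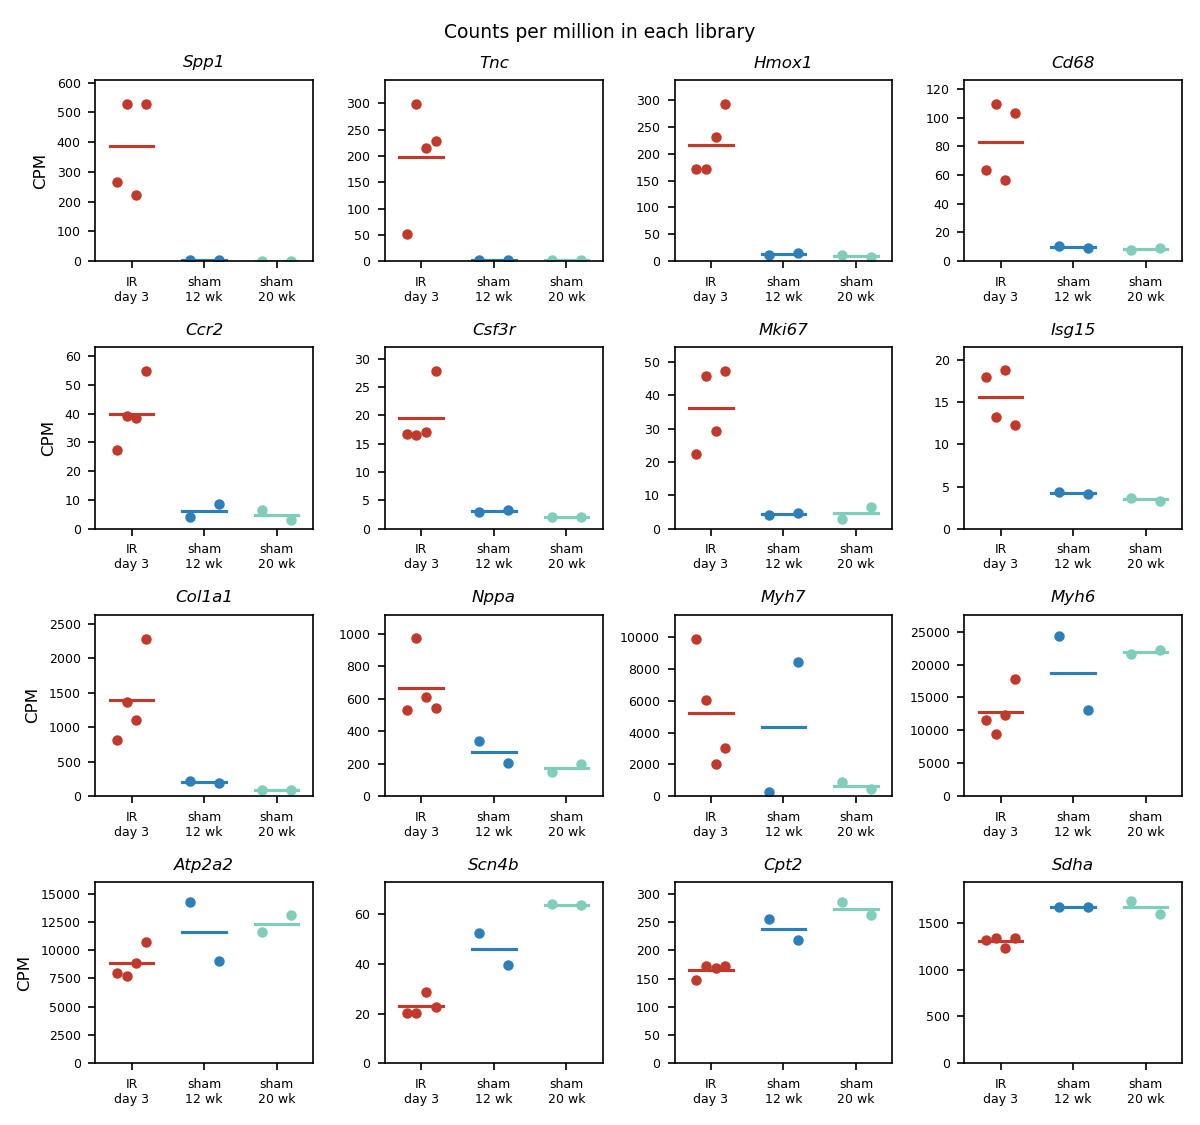
CPM of 16 genes in each IR library (red), 12-week sham (blue) and 20-week sham (green), with horizontal lines at the group means and all y axes starting at 0. Spp1, Tnc, Hmox1, Cd68, Ccr2, Csf3r, Mki67, Isg15, Col1a1 and Nppa of all IR libraries lie above all shams, while Myh7, Myh6 and Atp2a2 of 12-week sham replicate 2 lie within the IR range.

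The fetal and stress program of cardiomyocytes rose in part. Of 19 genes tested, 9 rose, none fell, and the median was 0.50. Nppa, atrial natriuretic peptide, was at 531, 976, 609.5 and 545 CPM in IR, 338 and 202 in 12-week and 146 and 199 in 20-week shams. IR replicate 2 was highest, no sham reached the IR range, and the rise was 1.37 ± 0.27 (edgeR adjusted p = 0.00145, and 0.0739 in a model of all 39 libraries). Nppb, the brain natriuretic peptide, was at 553, 556, 522 and 279.9 CPM in IR against 117 and 292 in 12-week and 224 and 254 in 20-week shams, where IR replicate 4 overlapped sham. Its rise of 0.88 ± 0.28 had an adjusted p of 0.0261, and of 0.0632 against the 12-week shams. The Nppb call ended in 11 of 22 alternatives, with an adjusted p of up to 0.137 (all 39 libraries), and without any single one of IR replicates 1, 2 and 3, 12-week sham replicate 1 or 20-week sham replicate 1. Ccn2, connective tissue growth factor, rose by 1.83 ± 0.31, and Uchl1, a ubiquitin hydrolase, by 0.86 ± 0.16.

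Among the myosin heavy chains, the call of Myh7 turned on 1 sham library, while that of Myh6 was kept without it. Myh7 was at 9914, 6079, 2004 and 3049.9 CPM in IR, 276 and 8452 in 12-week and 877 and 418 in 20-week shams. Its log2 difference of 0.88 ± 0.79 had an edgeR adjusted p of 0.439, and without 12-week sham replicate 2 the difference was 3.06 with an adjusted p of 0.000622. Myh6 was at 11518, 9473, 12269 and 17861 CPM in IR, 24323 and 13099.9 in 12-week and 21530.3 and 22205 in 20-week shams. It fell by 0.91 ± 0.20 (edgeR adjusted p = 0.0035, and 0.0638 in a fit without the 20-week shams), and replicate 2 of the 12-week shams again lay inside the IR range. Ankrd1, a stretch-responsive protein of the sarcomere, was not called with all shams (log2 0.50 ± 0.20, adjusted p = 0.0696) and was called without that library (adjusted p = 0.00767). Acta1, skeletal actin, overlapped between groups, at 328 to 735 CPM in IR and 172 to 534 in sham (log2 0.14 ± 0.35, edgeR adjusted p = 0.805).

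Contractile and calcium-handling genes fell by small amounts. Of 24 sarcomere genes, 16 fell, none rose, and the median was -0.39; 5 fell against the 12-week shams, and under library-total scaling 6 fell and 2 rose. Ttn, the giant spring protein titin, was at 3073, 3087, 3274 and 3026 CPM in IR against 3885 and 3722 in 12-week and 3902 and 3586 in 20-week shams. The groups were separate with little spread, a fall of 0.51 ± 0.09 (edgeR adjusted p = 0.000481). Cmya5, a partner of titin and desmin, fell by 0.58 ± 0.08, and Ldb3, a Z-disc protein, by 0.55 ± 0.09. Tnni3, cardiac troponin I, fell by 0.46 ± 0.13 with an adjusted p of 0.0139, which was 0.0773 against the 12-week shams.

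Of 25 calcium-handling genes, 13 fell and 3 rose (median -0.32); against the 12-week shams 4 fell, and under library-total scaling 5 fell and 6 rose. Atp2a2, the pump that refills the sarcoplasmic reticulum, was at 7994, 7759, 8911 and 10731 CPM in IR, 14238 and 9038 in 12-week and 11608 and 13106 in 20-week shams. Only 12-week sham replicate 2 came down into the IR range, and the fall was 0.67 ± 0.15 (edgeR adjusted p = 0.00295). Ryr2, the calcium release channel, fell by 0.70 ± 0.14, and Hrc, which binds calcium inside the reticulum, by 0.83 ± 0.13. Sri, the channel regulator sorcin, went the other way, from a sham range of 36.8 to 40.1 CPM to an IR range of 53.3 to 65.5 CPM, a rise of 0.40 ± 0.08 (edgeR adjusted p = 0.00155). Pln, phospholamban, the inhibitor of the Atp2a2 pump, was at 6302, 6009.5, 5436 and 5660.2 CPM in IR against 6859 and 6899 in 12-week and 6497 and 6403 in 20-week shams. These levels did not overlap, but the adjusted p of the fall was 0.0117 with all shams, 0.0576 against the 12-week shams and 0.136 under library-total scaling.

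Ion channel genes fell in 12 of 24 cases with none higher (median -0.46), in 8 against the 12-week shams and in 8 under library-total scaling. Kcnj11, the pore of the ATP-sensitive potassium channel, was at 45.7, 47.5, 41.8 and 49.6 CPM in IR, 56.6 and 62.8 in 12-week and 62.6 and 62.4 in 20-week shams. Its groups were separate, a fall of 0.64 ± 0.08 (edgeR adjusted p = 2.45e-05). Kcnj2, an inward rectifier that sets the resting potential, fell by 0.78 ± 0.14, and Kcnd3, of the transient outward current, by 0.58 ± 0.10. Hcn4, the pacemaker channel, fell by 1.02 ± 0.26 with an adjusted p of 0.008, which was 0.166 against the 12-week shams. Of 12 general cardiomyocyte markers 10 fell (6 against the 12-week shams, 7 under library-total scaling), with a summed level of 57730.0, 48806, 58692 and 60311 CPM in IR, 76993 and 61771 in 12-week and 75094 and 76683 in 20-week shams. The part of this lower share of cardiomyocyte counts in the falls of single cardiomyocyte genes was not tested.

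Most genes on the lists of oxidative metabolism fell. Of 30 genes of the TCA cycle and of leucine, isoleucine and valine breakdown, 28 fell (median -0.53), 25 against the 12-week shams and 24 under library-total scaling. Ogdh, the 2-oxoglutarate dehydrogenase of the cycle, was at 2324, 2435, 2247 and 2485 CPM in IR, 3063 and 2914 in 12-week and 3144 and 3179 in 20-week shams. Each group was tight and all IR libraries were lower, a fall of 0.61 ± 0.09 (edgeR adjusted p = 0.000121). Mut, the mitochondrial mutase that feeds propionate into the cycle, fell by 0.70 ± 0.09, and Cs, citrate synthase, by 0.57 ± 0.10. Sdha, which serves both the cycle and the respiratory chain, was at 1226 to 1339.8 CPM in IR and 1597 to 1731 in sham, a fall of 0.58 ± 0.09 (edgeR adjusted p = 0.000281).

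Of 35 genes of fatty acid use, 23 fell and none rose (median -0.61), 12 fell against the 12-week shams and 17 under library-total scaling. Cpt2, which completes the transfer of fatty acids into mitochondria, was at 147, 173, 168 and 171 CPM in IR, 256 and 218 in 12-week and 285 and 262 in 20-week shams. No library overlapped, and the fall was 0.86 ± 0.13 (edgeR adjusted p = 0.000154). Hadhb, of the trifunctional oxidation enzyme, fell by 0.79 ± 0.12, Acsl1, which activates fatty acids, by 0.90 ± 0.14, and Etfa, the electron carrier of their oxidation, by 0.63 ± 0.10. Cd36, the fatty acid transporter of the cell surface, fell by 0.65 ± 0.15, with an adjusted p of 0.0832 against the 12-week shams.

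Nuclear genes of the respiratory chain fell in 33 of 40 cases with a narrow range of log2 differences, -0.65 to -0.19; 15 fell against the 12-week shams and 12 under library-total scaling. Atp5a1, a subunit of ATP synthase, was at 3333 to 3613 CPM in IR and 4112 to 4519 in sham, a fall of 0.55 ± 0.10 (edgeR adjusted p = 0.000548). Of 8 mitochondrially encoded genes tested 7 fell, 4 under library-total scaling and only 1 against the 12-week shams. The last was mt-Nd5, a subunit of complex I, at 15859, 20400.5, 18643 and 21045 CPM in IR, 26197 and 21901 in 12-week and 30513 and 27125 in 20-week shams (fall of 0.71 ± 0.15). Mitochondrially encoded genes took 19.6 ± 1.27% (SD, n = 4) of counts in IR and 24.4 ± 1.49% (SD, n = 4) in sham libraries. The difference of -4.83 percentage points had an exact two-sided permutation p of 0.0286, the smallest that 4 against 4 allows.

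Glycolysis genes moved both ways: of 28, 15 fell and 4 rose, a split that became 5 and 6 under library-total scaling. Pygm, muscle glycogen phosphorylase, was at 882 to 1039 CPM in IR and 1194 to 1266 in sham, a fall of 0.61 ± 0.09 (edgeR adjusted p = 8.97e-05), and Pfkm, muscle phosphofructokinase, fell by 0.55 ± 0.09. Slc16a3, a lactate exporter, rose from a sham range of 0.851 to 1.97 CPM to an IR range of 8.93 to 15.7 CPM, or by 2.89 ± 0.29 (edgeR adjusted p = 5.61e-06). Ckm, muscle creatine kinase, fell by 0.74 ± 0.12, and Mb, myoglobin, by 0.50 ± 0.12. Hypoxia targets gave 3 rises and 5 falls among 20, and the median changed sign with library-total scaling (-0.07 and 0.15).

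Many ribosomal protein genes and chaperones of the endoplasmic reticulum rose modestly. Of 30 ribosomal protein genes 27 rose (median 0.35), though 7 did against the 12-week shams; these genes have many near-identical pseudogenes, so their counts are uncertain. Rpl3 was at 162 to 196 CPM in IR and 70.3 to 81.7 in sham, a rise of 0.95 ± 0.09 (edgeR adjusted p = 2.93e-06). Of 23 chaperones of the endoplasmic reticulum 13 rose and none fell (median 0.41), 9 against the 12-week shams, 17 without 12-week sham replicate 2 and 18 under library-total scaling. Edem1, which sends misfolded proteins for destruction, was at 36.3, 48.4, 34.7 and 46.3 CPM in IR and 12.0 to 18.2 in sham, a rise of 1.22 ± 0.15 (edgeR adjusted p = 2.81e-05). Pdia6, a disulfide isomerase, rose by 0.86 ± 0.12, and Psat1, of serine synthesis, by 1.66 ± 0.24. Heat shock proteins gave 6 falls among 20 and no rise, which turned to 3 rises and 1 fall under library-total scaling.

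Among oxidative stress genes 11 of 24 rose and 3 fell; 8 rose and 1 fell against the 12-week shams, and 15 and 1 under library-total scaling. Besides Hmox1, the rises included Gpx1, a glutathione peroxidase (0.99 ± 0.12), Mt2, a metallothionein (1.64 ± 0.32), and Ncf1, a subunit of the phagocyte oxidase (2.61 ± 0.20), whose exons overlap those of a neighbouring gene. Sod2, which detoxifies superoxide in mitochondria, fell by 0.57 ± 0.10. Of 30 lysosome and proteolysis genes 10 rose and 4 fell, and 14 and 0 under library-total scaling; Ctsb, the lysosomal protease cathepsin B, rose from a sham range of 419 to 537 CPM to an IR range of 976 to 1556 CPM. None of 19 clock genes was called with TMM in edgeR, where 4222 of all 13611 genes (31.0%) were. Under library-total scaling 2 clock genes rose, and DESeq2 called 1 higher.

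Some genes of acute-phase proteins, complement and growth factors rose. Of 17 acute-phase and secreted stress proteins, 10 rose and none fell; Timp1, an inhibitor of matrix proteases, was at 76.1, 73.5, 145 and 106 CPM in IR and 1.17 to 9.80 in sham. That separation gave a rise of 4.21 ± 0.40 (edgeR adjusted p = 3.33e-06). Of 20 complement genes 8 rose, among them the anaphylatoxin receptors C3ar1 (2.67 ± 0.21) and C5ar1 (2.49 ± 0.22). Growth factors gave 9 rises and 4 falls among 26, and 13 and 0 under library-total scaling. Igf1, insulin-like growth factor 1, was at 23.6 to 43.8 CPM in IR and 11.2 to 21.6 in sham, a rise of 0.96 ± 0.18 (edgeR adjusted p = 0.00103). Hgf, hepatocyte growth factor, rose by 2.30 ± 0.48, whereas Fgf1, a fibroblast growth factor, fell by 0.47 ± 0.11.

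Transcription factor genes showed both directions. Runx1, a factor of blood and injured heart cells, was at 12.8, 20.7, 16.2 and 20.3 CPM in IR and 1.38 to 3.27 in sham, a rise of 2.48 ± 0.27 (edgeR adjusted p = 1.2e-05). Myc rose by 1.44 ± 0.30. Esrrg, a nuclear receptor that drives mitochondrial genes, was at 32.2 to 43.7 CPM in IR and 50.4 to 58.2 in sham, a fall of 0.72 ± 0.10 (edgeR adjusted p = 0.000114). Tbx5, a cardiac lineage factor, fell by 0.60 ± 0.11; of 21 lineage factors 7 fell and Runx1 alone rose. Against the 12-week shams 3 of them fell, and 2 under library-total scaling.

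Some markers of vessel and minor cell types were called, where 31.0% of all genes tested were (16.9% higher and 14.1% lower). Of 12 endothelial markers 3 fell with all shams and none against the 12-week shams, and the list's median changed sign with library-total scaling (-0.14 and 0.09). Its summed level was 1859 to 2231 CPM in IR and 1817 to 2072 in sham libraries. Pecam1, a junction protein named after its values were seen, was at 167 to 205 and 159 to 177 CPM; its log2 difference was -0.12 ± 0.08, and 0.11 under library-total scaling. Of 7 endocardium markers tested, 1 rose and 2 fell, with a median of -0.20. The counts were the same against the 12-week shams, and 1 rose and 1 fell under library-total scaling. The rise was Plvap, also of permeable capillaries, by 1.53 ± 0.26 (edgeR adjusted p = 0.00042), and Cytl1 was among the falls. Smooth muscle and pericyte markers gave 1 rise among 12, Tagln (0.89 ± 0.12), and 3 falls, none of which was kept under library-total scaling. Pf4, platelet factor 4, rose from a sham range of 7.55 to 10.7 CPM to an IR range of 38.2 to 54.5 CPM while no other platelet gene of 5 tested was called; macrophages also express Pf4. Tubb3, a neuronal tubulin, rose by 2.91 ± 0.34. Markers of epicardium, adipocytes and red cells gave no call.

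IR at day 3 and MI at 8 weeks were compared in the same model. Time after injury, age and the kind of ligation differ together and cannot be told apart. Of 13611 genes 2730 (20.1%) were called, 1527 (11.2%) higher in IR and 1203 (8.84%) lower. Many genes of dividing cells and phagocytes were higher at day 3: 35 of 36 mitosis genes, 15 of 16 macrophage markers and 8 of 9 neutrophil genes, with none lower. Other immune lists varied. Interleukin and NF-kappaB target genes gave 22 higher and 0 lower, interferon-stimulated genes 17 and 0, and chemokines and receptors 17 and 1. Monocyte and recruited macrophage markers gave 11 higher and 0 lower, and antigen presentation genes 3 and 0. Complement was split, with 8 higher and 7 lower, as were acute-phase and secreted stress proteins, with 5 and 5. Of the B cell genes 2 were lower with none higher. Hmox1 was at 11.4, 16.3, 12.1 and 11.4 CPM in the 4 MI libraries, within the sham range or just above it, and was 3.96 ± 0.20 higher in IR (edgeR adjusted p = 3.06e-08). Arg1 was 4.68 ± 0.48 higher, and Slfn4, a myeloid interferon-induced gene, 5.18 ± 0.42 higher. Lcn2, an iron-binding acute-phase protein, was at 18.5 to 30.8 CPM in IR, 1.43 to 11.2 in sham and 0.853 to 2.38 in MI, 3.68 ± 0.45 higher in IR than MI (edgeR adjusted p = 8.05e-05).

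Nppa and some matrix genes were higher after 8 weeks of MI, while the lists they belong to were split. Of 19 fetal and stress genes 6 were lower in IR than in MI and 3 higher, and of 35 matrix glycoproteins 12 were lower and 9 higher. Collagens gave 6 higher and 2 lower, and crosslinking enzymes, proteases and inhibitors 17 higher and 2 lower in IR. Nppa was at 2695, 4819, 2284 and 2084 CPM in MI, above every IR library, so IR was 2.26 ± 0.28 below MI on the log2 scale (edgeR adjusted p = 8.44e-05). For Nppb the difference was -0.45 ± 0.28 (edgeR adjusted p = 0.277). Ltbp2, which binds elastic microfibrils, was at 174, 254, 119 and 95.6 CPM in MI and 23.3, 80.0, 68.1 and 74.1 in IR, where replicate 1 was lowest. IR was 1.49 ± 0.37 below MI for this gene (edgeR adjusted p = 0.0103). Ccn5, a matricellular growth regulator, was 1.36 ± 0.19 below MI, and 1.12 ± 0.21 above sham in IR. Postn was at 416, 809, 391 and 276 CPM in MI, overlapping IR, with a difference of 0.10 ± 0.37 (edgeR adjusted p = 0.888). Meox1, a homeobox factor of activated fibroblasts, was at 23.8 to 57.3 CPM in IR, 9.78 to 21.5 in sham and 37.5 to 106 in MI. Its rise of 1.22 ± 0.33 from sham had an adjusted p of 0.0116, and of 0.0651 against the 12-week shams. Bdh1, a ketone-oxidizing enzyme, was at 60.0 to 94.7 CPM in IR, 47.4 to 169 in sham and 195 to 227 in MI. Its fall of 0.94 ± 0.27 from sham had an adjusted p of 0.0167, and of 0.398 against the 12-week shams; its call ended in 6 of 22 alternatives. All 7 adipocyte markers tested were lower in IR than in MI; their summed level was 26.2 to 52.4 CPM in IR, 25.7 to 45.2 in sham and 199.9, 234, 118 and 37.4 in MI libraries. MI replicate 4 fell inside the IR range, and the other MI libraries lay above it.

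**Figure D5:**
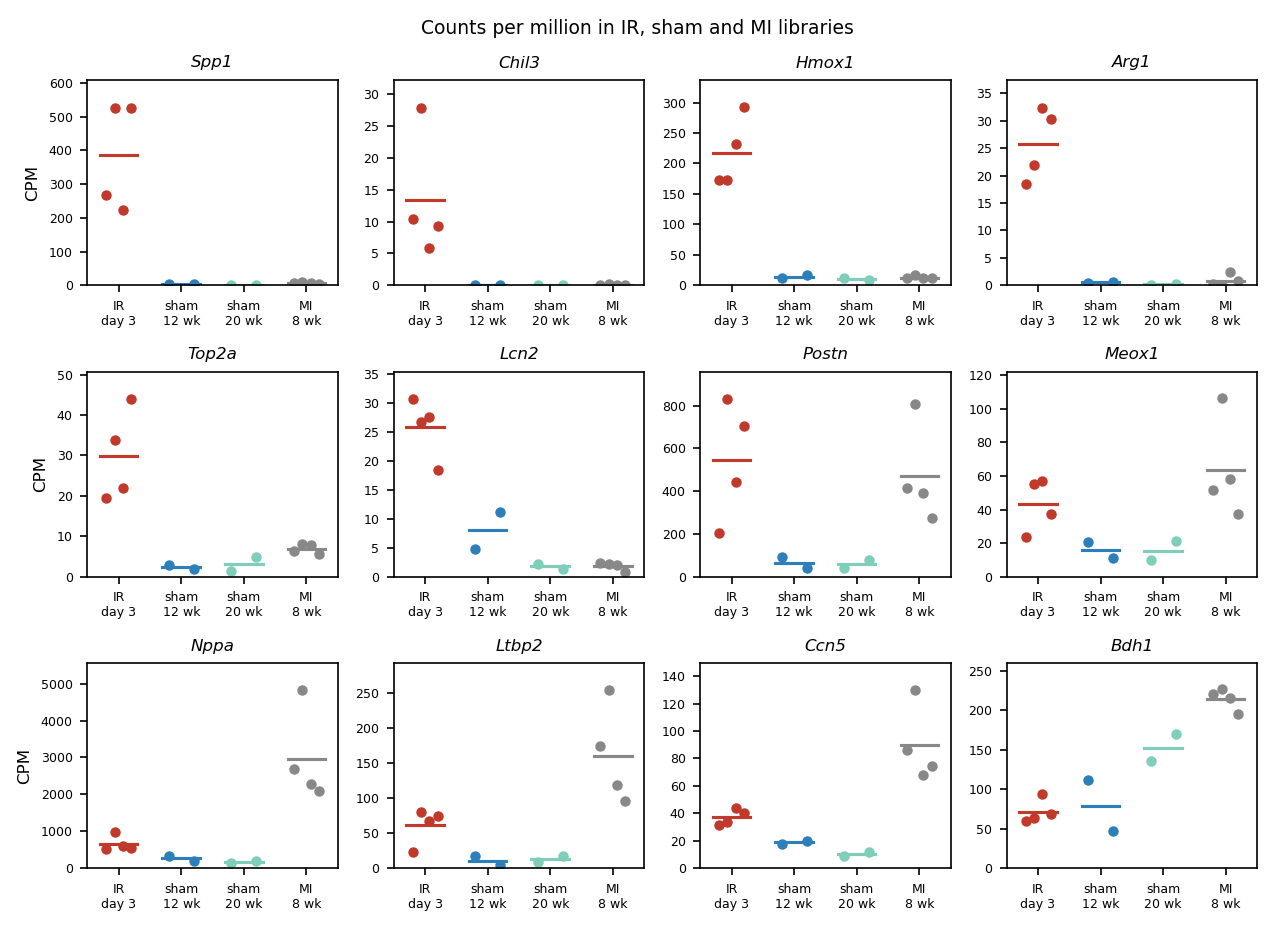
CPM of 12 genes in each IR (red), 12-week sham (blue), 20-week sham (green) and MI (grey) library, with horizontal lines at the group means and y axes from 0. Spp1, Chil3, Hmox1, Arg1, Top2a and Lcn2 are higher in every IR library than in any sham or MI library, whereas Nppa, Ltbp2 and Ccn5 are highest in MI, and Postn overlaps between IR and MI.

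The 2 sham ages were compared because only the younger shams match the IR mice. In edgeR 0 of 13611 genes were called between 20-week and 12-week shams, with 889 at an unadjusted p under 0.05, and DESeq2 called 3. With 2 libraries per age this count says little about how alike the ages are.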

How the data were processed

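Messenger RNA of remote left ventricle was sequenced from stranded libraries, per the labels' protocols. The authors aligned reads with STAR 2.7.3a to mm10 and made raw counts per gene with featureCounts of Subread 2.0.0, per the submitters' processing notes; the strand setting of the counting is not given in the sources used here. From the deposited counts, 4 IR, 4 sham and 4 MI libraries were fitted together in edgeR 4.0.16 (quasi-likelihood test, TMM scaling, its default filter on low counts, R 4.3.3), and p-values were adjusted by Benjamini-Hochberg over all 13611 genes tested. The fit was also run on simulated counts in which few genes changed, as many up as down. That setting differs from these data and cannot decide between TMM and library-total scaling. DESeq2 1.42.0, limma 3.58.1 and other scalings, filters and sample sets were alternatives. Same-numbered libraries were not paired: 1 of 8 such pairs deviated together with a correlation over 0.1.

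The gene lists and the rule for named genes were chosen with earlier results of these data known. The rule took 10 standard stress and matrix genes, the 15 largest rises and falls without overlap above 5 CPM, the 10 smallest p, the 4 smallest p of each of 36 function and 24 cell type lists with the 1 smallest p in the other direction (those called where 1 or 2 were), the 8 largest IR to MI differences each way and the 5 largest CPM changes each way. Genes named outside it were chosen after their values were seen: Acta2, Ankrd1, Bst2, C1qb, Ccl2, Ccl7, Cd36, Cd3e, Cdkn1a, Cs, Cxcl10, Cxcl5, Folr2, H2-D1, Hmmr, Il1b, Il1rn, Il6, Ly6c2, Lyve1, Mb, Meox1, Mmp14, Oas1a, Pdgfra, Pecam1, Plac8, S100a8, S100a9, Timd4, Tnf, Tnni3 and Top2a. Of 154 genes examined, 35 share exon bases with another gene, 32 of them on the opposite strand. In 4 (Cxcl10, Ncf1, Pfkfb1, Tagln) the partner held over 10% of the gene's own counts.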

Additional observations from a re-analysis of the deposited data

Results flagged for a closer look

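Of 310 groups of 4 libraries examined over the named genes, 22 had 1 library far from the other 3 by Dixon's criterion, and chance alone gives about 1 in 20. In 12-week sham replicate 2, Myh7 stood at 8452 CPM, Ccl7 at 12.8, Cxcl5 at 4.46 and Il6 at 1.68, each above the other 3 shams. In 12-week sham replicate 1, Cd4 was high at 1.52 CPM and Kcnj11 low at 56.6. In 20-week sham replicate 2, Mmp14 stood at 23.8 and Tubb3 at 1.81 CPM. That library also held the only sham counts of Chil3 (0.0753 CPM), Cd3e (0.0753 CPM), Il1r2 (0.151 CPM) and Rgs1 (0.151 CPM).

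Among IR libraries, replicate 4 was highest for Csf3r (27.8 CPM), S100a9 (11.5), Pf4 (54.5) and Maf (51.2), and lowest for Nppb (279.9). Replicate 2 was highest for Rgs1 (12.6 CPM) and Il7r (9.88), replicate 3 for Mt2 (89.3) and Acsm5 (3.12), and replicate 1 was lowest for Cpt2 (147).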

How the results depend on the processing

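The sham group pools 2 ages, and with 2 shams per age fewer genes passed. Without the 20-week shams, 2136 genes were called, 1456 higher and 680 lower, and 2181, 1474 and 707 when each age had its own mean; the cause was not tested. Testing for a fold above 1.2 left 2006 genes, 1493 higher and 513 lower, and 1184 between IR and MI. Library-total scaling gave 4189 higher and 431 lower. Leaving out 1 library at a time gave 3294 to 4146 called genes, 1952 to 2288 higher and 1331 to 1902 lower. The other settings stayed within 1.5 times of 4222: DESeq2 called 4358 and limma-voom 4128. The sham ages differed in 3 genes with DESeq2 and 11 with no filter on low counts. The mitochondrial share differed by -3.55 points from the 12-week and -6.11 from the 20-week shams (exact permutation p = 0.133 each, the smallest possible), and by -5.42 to -4.31 with 1 library left out (p = 0.0571, the smallest possible).

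Of 146 named genes called, 119 kept call and direction in every alternative and 139 in each fit without 1 library. Sign changes were confined to 4 named genes that were not called. Acta1 was at -0.046 without 12-week sham replicate 2, -0.082 without 20-week sham replicate 1 and -0.20 without IR replicate 3, in a range of -0.20 to 0.38 over fits without 1 library. Timd4 was at -0.075 without the 12-week shams and -0.13 without 12-week sham replicate 1, in a range of -0.13 to 0.36. Tnf was at -0.32 without the 12-week shams, -0.095 without 12-week sham replicate 1 and -0.089 without IR replicate 1, in a range of -0.095 to 0.63. Pecam1 was at 0.11 with library-total scaling. Libraries share only a replicate number (correlations of deviations -0.123 to 0.155); with the number as a replicate block 3529 genes were called, 1985 higher and 1544 lower, and 2462 between IR and MI. Depth limits genes near 0 in sham, such as Chil3, whose ratios have wide intervals.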

Other observations

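Further gene groups were examined in the same comparison. Of 6 dendritic cell markers tested, 4 rose and none fell (3 against the 12-week shams). Itgax, an integrin of dendritic cells and of some macrophages, was at 5.20 to 11.6 CPM in IR and 0.226 to 1.17 in sham. These groups did not overlap, and the rise was 3.21 ± 0.36 (edgeR adjusted p = 1.56e-05). Irf8, a transcription factor of dendritic cells and monocytes, rose by 1.65 ± 0.18.

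Immediate early genes rose in 10 of 24 cases and fell in none (7 rises against the 12-week shams). Ier3, a stress-induced survival protein, was at 54.7 to 81.3 CPM in IR and 21.2 to 42.4 in sham, a 1.99-fold rise in the fit (edgeR adjusted p = 0.000803). Of 23 genes of amino acid stress signalling and one-carbon use, 9 rose and 2 fell; 5 rose and 1 fell against the 12-week shams, and 13 and 1 with library-total scaling. Pycr1, of proline synthesis, rose by 1.69 ± 0.29, while Vldlr, a lipoprotein receptor, fell by 0.63 ± 0.09. Of 24 genes of lipid synthesis 5 rose and 2 fell, where 16.9% of all genes tested rose and 14.1% fell. Against the 12-week shams 4 of these lipid genes rose and 1 fell, and with library-total scaling 9 and 0. Acacb, the muscle acetyl-CoA carboxylase, fell by 0.48 ± 0.10, but its adjusted p was 0.0519 with library-total scaling. Fads2, a fatty acid desaturase, rose by 0.99 ± 0.26.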
